A study of Mus musculus with 3 samples.

Results

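The cells described here are smooth muscle cells of the mouse aorta that carry transcripts of trunk Hox genes or of Sema3a and none of Hand2. They were chosen from single-cell RNA sequencing counts by their unique molecular identifiers (UMIs, each marking 1 captured transcript). A cell entered the smooth muscle gate when it had at least 200 detected genes, under 20% mitochondrial UMIs, at least 5000 UMIs in all, at least 2% of its UMIs from Acta2 and Tagln together and under 0.5% from Dcn. Within the gate, a Hox cell had at least 3 UMIs of Hoxa7, Hoxb7, Hoxb8 and Sema3a together, 0 UMIs of Hand2 and Hand2os1, and fewer than 4 UMIs of Dlx5, Dlx6, Dlx6os1, Prss12 and Msx2 together. The rule found 3628 Hox cells among 17512 gate cells and 26757 cells that passed the limits on genes and mitochondrial UMIs, with 924 in the APOE2 library, 1166 in APOE3 and 1538 in APOE4. UMIs of Hoxa7, Hoxb7, Hoxb8 and Sema3a are together called Hox UMIs below, although Sema3a is not a Hox gene. Without Sema3a in the sum, 697 cells in APOE2, 884 in APOE3 and 1075 in APOE4 met the rule. The genes of the rule are given below as a description without a test, since their values chose the cells.

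The study asked how the human APOE alleles change the cells of the aortic wall under a Western diet. All animals were male gene replacement mice on a C57BL/6J background in which human APOE2, APOE3 or APOE4 stands in place of mouse Apoe, so no group kept the mouse gene and there was no wild-type control. The diet held 42% fat and 0.2% cholesterol and was given for 16 weeks from the age of 12 weeks. Aortas from the arch to the iliac bifurcation were dissociated with enzymes and pooled within a genotype, with 6 mice for APOE2, 5 for APOE3 and 7 for APOE4, and each pool gave 1 droplet library. A barcode does not tell which mouse a cell came from, and the position of a cell along the aorta was not recorded. The libraries held 168310501 UMIs in 11772 cells for APOE2, 125105151 UMIs in 6737 cells for APOE3 and 124926887 UMIs in 8248 cells for APOE4 after the limits on genes and mitochondrial UMIs. Shared barcodes between pairs of libraries were 26 for APOE2 and APOE3, 30 for APOE2 and APOE4 and 23 for APOE3 and APOE4, and no barcode was in all 3. With 1 library for each genotype, genotype, pool and library cannot be told apart, and no test between genotypes was made. The aligned reference holds a mouse Apoe gene, and in the Hox cells Apoe was counted at 135, 131 and 136 counts per 1000000 UMIs (CPM) in APOE2, APOE3 and APOE4. Whether these UMIs come from human or remaining mouse sequence was not tested, and Apoe was looked up after other results had been seen.

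Hox genes encode homeodomain transcription factors that lie in clusters in which the order of the genes matches the order of the body regions where they are expressed, from the hindbrain to the tail. Paralogue groups with low numbers mark anterior levels and those with high numbers posterior levels. Smooth muscle of the arch comes largely from neural crest and the outflow tract from the second heart field, where Hand2 is active, while smooth muscle of the descending aorta comes from the paraxial mesoderm of the trunk. Adult arterial smooth muscle keeps part of this embryonic address in its transcripts.

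Promoter sequences are shown for 3 genes that differ between Hox and Hand2 cells: Hoxb8, a gene of the rule, Rgs5, the marker that the rule did not use, and Hand2, whose absence was required. They are the 200 bases before the RefSeq start site in GRCm38.p6, written 5′ to 3′ on the gene's strand. Capitals mark matches on either strand to TAATTA, to TATAAA, to each of TGATTTAT, TGATTAAT and TGATTGAT, or the CArG box, which binds serum response factor in smooth muscle genes. TGACAG was also searched and is not in the bases shown. These genes and motifs were chosen after the results had been seen. The Hoxb8 sequence lies at chr11:96281705-96281904 (plus strand) and holds TTTATA, the reverse complement of TATAAA, at 2 places. The Rgs5 sequence lies at chr1:169655301-169655500 (plus strand) and holds no match. The Hand2 sequence lies at chr8:57320783-57320982 (plus strand) and holds 1 TAATTA, a core recognised by many homeodomain proteins.
Hoxb8: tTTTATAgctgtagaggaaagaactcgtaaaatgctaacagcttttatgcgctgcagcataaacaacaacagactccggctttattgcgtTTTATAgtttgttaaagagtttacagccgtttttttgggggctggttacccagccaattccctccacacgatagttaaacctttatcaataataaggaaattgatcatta
Rgs5: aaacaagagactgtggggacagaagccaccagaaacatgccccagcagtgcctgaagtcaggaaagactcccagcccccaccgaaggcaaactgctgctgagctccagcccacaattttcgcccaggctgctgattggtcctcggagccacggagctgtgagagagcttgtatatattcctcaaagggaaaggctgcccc
Hand2: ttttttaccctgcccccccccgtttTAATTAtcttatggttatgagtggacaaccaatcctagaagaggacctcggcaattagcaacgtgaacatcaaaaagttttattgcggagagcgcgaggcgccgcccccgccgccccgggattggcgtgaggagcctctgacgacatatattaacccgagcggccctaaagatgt
Among the 200 bases before the start of 32851 RefSeq promoters, 3.73% held TAATTA, 9.96% TATAAA, 1.18% a CArG box, 12.9% TGACAG, 0.691% TGATTTAT, 0.49% TGATTAAT and 0.499% TGATTGAT.

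The Hox cells carried the transcripts of contractile smooth muscle. Levels are counts per 1000000 UMIs (CPM), the UMIs of a gene in all cells of a class and library over the UMIs of those cells, and 3 values in a row are those of APOE2, APOE3 and APOE4. In such sums, fewer cells with a transcript and less of it in each cell cannot be told apart. Smooth muscle myosin heavy chain, Myh11, stood at 2951, 2792 and 2906 CPM, calponin, Cnn1, at 1398, 1455 and 1369 CPM, smoothelin, Smtn, at 466, 536 and 508 CPM and leiomodin, Lmod1, at 973, 869 and 784 CPM. All 4 were present in every library. Some defining markers of other cells were at or near 0. The endothelial cadherin Cdh5 had 1 UMI in all Hox cells together, the pericyte gene Vtn had 0, the pericyte marker Higd1b was at 0.0644, 0.153 and 0.0327 CPM and the leukocyte antigen Ptprc at 2.06, 0.729 and 1.18 CPM. The fibroblast genes Pdgfra and Lum were at 4.31, 4.57 and 3.73 CPM and 12.9, 4.91 and 5.33 CPM. Other genes of the same marker lists were present, with Cspg4 and Abcc9 of the pericyte list at 156, 191 and 161 CPM and 177, 148 and 144 CPM, Pecam1 of the endothelial list at 45.2, 31.6 and 40.7 CPM and Lyz2 of the macrophage list at 35.7, 24.6 and 6.80 CPM. Gsn of the fibroblast list was at 479, 650 and 427 CPM.

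The genes that chose the cells were spread unevenly over them. Hoxa7 (chromosome 6, 52214491 to 52221854, GENCODE vM21 on GRCm38) had a UMI in 83.7% of Hox cells in APOE2, 82.3% in APOE3 and 82.6% in APOE4, at 143, 109 and 116 CPM. Hoxb7 (chromosome 11, 96286623 to 96290162) had a UMI in 60.6, 62.2 and 60.6% of the cells, and Hoxb8 (chromosome 11, 96281905 to 96285315) in 34.7, 39.1 and 32.4%. Sema3a, a secreted guidance cue for axons and vessels on chromosome 5 (13125414 to 13602565), was found in 57.1, 67.9 and 64.7%. All 4 genes were seen together in 8.12% of the APOE2 cells, 13.6% in APOE3 and 8.06% in APOE4, and 14.1, 9.78 and 11.9% of the cells entered with UMIs of a single gene. A cell of this class was therefore seldom marked by the whole set at this depth. Median UMIs per Hox cell were 15032.5, 20004 and 17533.5, with 4033.5, 4664.5 and 4240.0 detected genes.

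The limit of 3 UMIs fell inside a continuous range of cells. Gate cells with 2 UMIs of the rule's genes, and otherwise meeting the rule, numbered 326 in APOE2, 332 in APOE3 and 615 in APOE4, and those with 3 UMIs numbered 282, 294 and 481. Hoxb6 was at 21.6 CPM just outside and 24.0 CPM just inside the limit in APOE2, 22.8 and 29.1 CPM in APOE3, and 23.8 and 22.2 CPM in APOE4. Cells on either side of the limit thus differed less from each other in a Hox gene that the rule did not use than from cells with 0 UMIs of the rule's genes, which had 8.53, 10.6 and 12.1 CPM of Hoxb6.

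The share of Hox cells in the gate was lowest in APOE2, where that of Hand2 cells was highest. Hox cells made up 13.5% of the gate cells in APOE2 (exact Clopper-Pearson 95% interval 12.7 to 14.4), 23.5% in APOE3 (22.3 to 24.7) and 27.0% in APOE4 (25.8 to 28.1). Hand2 cells, defined in the same gate by at least 3 UMIs of Hand2 and Hand2os1, 0 UMIs of the Hox rule genes and fewer than 4 of the Dlx set, took 23.1, 15.1 and 7.61%, in the opposite order. The intervals cover counting error only, and how much arch and descending aorta each pool held was not recorded, so a difference in dissection and one in the vessel cannot be told apart. Median UMIs per gate cell were 14821, 19992 and 15655.5. After each cell was thinned to 5000 UMIs, and the gate was applied again, leaving 6819, 4969 and 5702 gate cells, the share with at least 3 Hox UMIs was 3.33% in APOE2 (2.92 to 3.78), 4.35% in APOE3 (3.80 to 4.95) and 4.52% in APOE4 (4.0 to 5.10). With at least 1 UMI in the thinned cells the shares were 17.8, 25.4 and 32.8%. APOE2 had the lowest share in each of these counts. APOE4 had the highest, except that with at least 5 Hox UMIs required APOE3 stood at 13.3% and APOE4 at 12.2%. Of macrophage-marked cells outside the gate, 0 of 271 in APOE2, 0 of 71 in APOE3 and 0 of 84 in APOE4 had 3 or more Hox UMIs, which at a floor of 3 cells allows shares of up to 1.11, 4.23 and 3.57%, and 3, 3 and 1 of them had at least 1. Those cells were shallower, with medians of 9758, 9131 and 9617.5 UMIs.

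**Figure D1:**
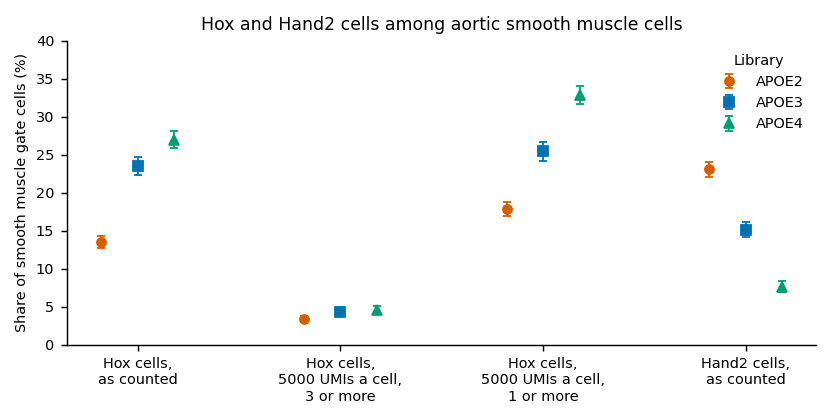
Share of smooth muscle gate cells (%, vertical axis) that were Hox cells as counted, Hox cells after thinning to 5000 UMIs with at least 3 or at least 1 Hox UMI, and Hand2 cells, with exact 95% intervals for counting error. The Hox share as counted was lowest in APOE2 at 13.5% and the Hand2 share was highest there at 23.1%.

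Some gate cells with 3 or more Hox UMIs did not enter the class. In APOE2, 218 of 1146 such cells had a Hand2 or Hand2os1 UMI, against 134 of 1301 in APOE3 and 80 of 1621 in APOE4, and 37, 4 and 5 had 4 or more UMIs of the Dlx set. Scrublet scores, which mark possible doublets, were in the top 6% of their library for 4.22% of the Hox cells in APOE2, 4.03% in APOE3 and 5.40% in APOE4, against 7.60, 6.26 and 4.38% of the Hand2 cells.

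Against the Hand2 cells of the same libraries, Hox cells had higher levels of Hoxa5, Hoxa6, Hoxa9, Hoxb5, Hoxb6 and Hoxb9, of Rgs5, a regulator of G protein signalling, and of the peptide receptor subunit Calcrl. They had lower levels of cardiac troponin T (Tnnt2), lipoprotein lipase (Lpl), the growth factor binding protein Igfbp4, 10 of 18 outflow tract and neural crest transcription factors and all 24 immediate early and heat shock genes tested. This comparison asked how the Hox cells differ from the Hand2 cells of the same libraries, 1578 in APOE2, 751 in APOE3 and 434 in APOE4. UMIs were summed per class and library and tested with edgeR's quasi-likelihood test with library as a block, so the 3 libraries are the replicates. Where classes are said below to overlap or not, the library sums of each class are meant, not single cells. The genes named were picked by the test and the size of their change, so a lack of overlap follows in part from that choice. The share of all genes without overlap is not given here. Values after ± are approximate standard errors (SE) of the fitted log2 fold change, and p-values are Benjamini-Hochberg adjusted. Each SE was worked back from the test, as the size of the log2 fold change over the square root of the F statistic. Of 14330 genes tested outside the rule, 797 were higher in Hox cells (5.56%) and 1078 lower (7.52%) at an adjusted p under 0.05, with a median log2 fold change of 0.01 over all genes. These shares are the background for every list count against Hand2 cells below. Without the library block the counts were 97 and 165. Hand2 cells were deeper, with medians of 17573.5, 24019 and 19768.5 UMIs, and had fewer mitochondrial UMIs, with medians of 1.91, 1.37 and 2.39% against 2.77, 1.75 and 3.12% in Hox cells. With cells of 10000 to 25000 UMIs only, 660 genes were higher and 960 lower, and the part of the mitochondrial share was not tested.

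Along clusters A and B the difference between the classes was larger for the genes called from paralogue group 5 on than for those before it. Of the 36 Hox genes outside the rule, 19 passed the filter on low counts, 13 of them higher in Hox cells and 2 lower, and their median log2 fold change was 1.40. Of the 17 that did not pass the filter, Hoxc9 had 24 UMIs in Hox cells and 1 in Hand2 cells, Hoxc10 had 7 and 0, and each of the others had at most 3 in Hox cells and 0 in Hand2 cells. Both classes were chosen on Hoxa7, Hoxb7 and Hoxb8, neighbours of many of these genes, and gene models in the Hox clusters overlap, so the directions are not independent of the choice.

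In cluster A the genes of the anterior groups had similar levels in both classes. Hoxa3 was at 34.0, 34.0 and 32.2 against 26.7, 30.4 and 32.2 CPM in Hox and Hand2 cells (0.13 ± 0.069, adjusted p = 0.286), and Hoxa4 at 8.24, 9.17 and 7.78 against 8.03, 7.95 and 8.80 CPM (-0.01 ± 0.11, adjusted p = 0.959). Hoxa2 did not pass the test either, with a log2 fold change of -0.23. Hoxa5 was the first gene of the cluster to pass, at 32.4, 27.7 and 40.1 against 10.3, 9.70 and 18.1 CPM (1.40 ± 0.092, adjusted p = 6.8e-05). Further along, Hoxa6 had 102 UMIs in Hox cells and 2 in Hand2 cells, a ratio per UMI sequenced of 43.6 (11.8 to 365), with the 95% counting interval in parentheses. Hoxa9 had 100 UMIs in Hox cells and 3 in Hand2 cells, a ratio of 28.5 (9.48 to 141).

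Cluster B showed smaller steps at its anterior end and large ones from Hoxb5. Hoxb2, at 51.9, 52.8 and 43.2 against 27.9, 28.2 and 24.0 CPM, was higher in Hox cells (0.84 ± 0.050, adjusted p = 4.21e-05). Hoxb3 (0.53 ± 0.10) and Hoxb4 (0.79 ± 0.065) were also higher. Hoxb5 stood at 20.1, 18 and 17.4 against 0.598, 0.550 and 1.20 CPM (4.70 ± 0.20, adjusted p = 6.17e-06), and Hoxb6 at 25.3, 28.9 and 24.4 against 0.346, 0.350 and 0.300 CPM (6.2 ± 0.14, adjusted p = 7.26e-07). Every library sum of these genes in the Hox class lay above every library sum in the Hand2 class. Hoxb9 had 204 UMIs in Hox cells and 2 in Hand2 cells, a ratio of 87.3 (23.8 to 725).

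Of these classes, Hox cells held nearly all UMIs of cluster C, and Hand2 cells nearly all of Hoxd3 and Hoxd4. Hoxc6 was at 6.76, 5.49 and 5.13 CPM in Hox cells and had 405 UMIs in Hox cells and 1 in Hand2 cells, a ratio of 346 (61.8 to 13718). Hoxc4 had 153 UMIs in Hox cells and 1 in Hand2 cells, a ratio of 131 (23.1 to 5203). Against a floor of 3 counts over the Hand2 cells together, Hoxc8 was at least 22.5-fold higher and Hoxc5 at least 9.70-fold higher. In the other direction, Hoxd4 had 0 UMIs in Hox cells and 109 in Hand2 cells, at least 42.5-fold lower against the same floor over the Hox cells. Hoxd3 had 1 UMI in Hox cells and 32 in Hand2 cells, a ratio of Hand2 over Hox cells of 37.4 (6.25 to 1523). The genes of clusters C and D from group 11 on had 0 UMIs in both classes.

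**Figure D2:**
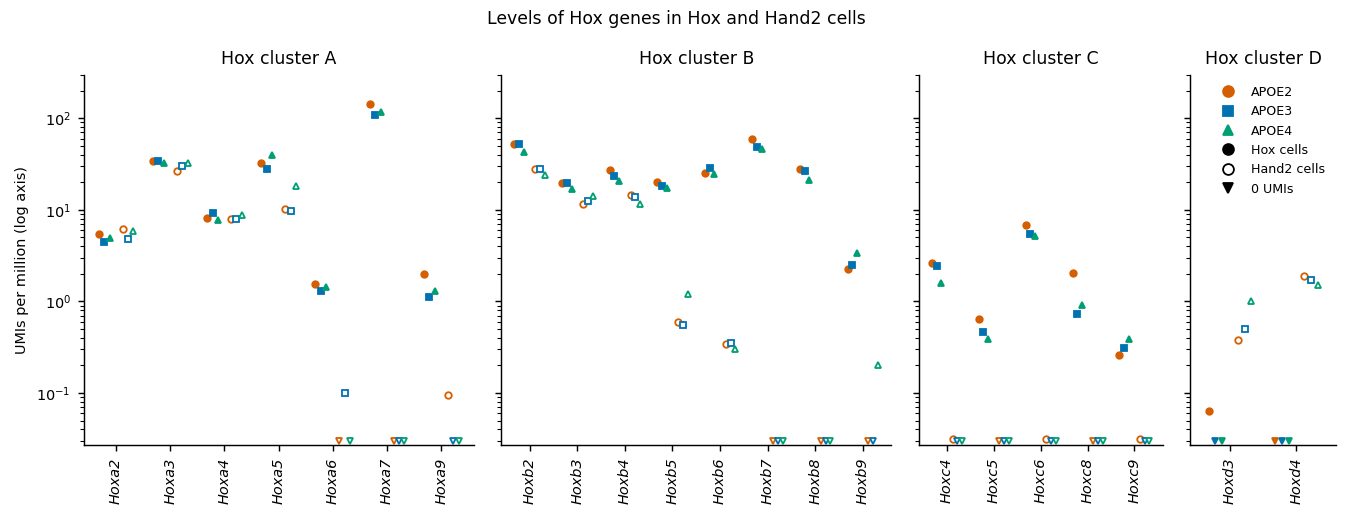
Levels of Hox genes (CPM, log axis) in Hox cells (filled) and Hand2 cells (open) of each library, by cluster and paralogue group, for genes with at least 10 UMIs in either class. Downward triangles at the bottom mark 0 UMIs, Hoxa7, Hoxb7 and Hoxb8 chose the cells, and a reader should see that the classes lie close together at Hoxa2 to Hoxa4, apart from Hoxa5 and Hoxb5 on, and reversed at Hoxd3 and Hoxd4.

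Hox proteins bind DNA with cofactors of the Meis, Pbx and Pknox families, whose transcripts were present in both classes. The cofactor list had 0 of 9 tested genes higher and 2 lower, with a median log2 fold change of -0.07. The lower genes were Meis2 (87.6, 78.1 and 97.8 against 158, 103 and 110.1 CPM, -0.52 ± 0.11) and Pbx3 (-0.38 ± 0.063). The 4 genes that the study used for the descending aorta and that lie outside the rule (Hoxa6, Hoxb9, Hoxc6 and Tnc) were all higher. The rule used other genes of the same set, so this is not independent of the choice of cells. Tnc, the matrix glycoprotein tenascin C, was at 42.3, 59.8 and 46.9 against 10.2, 18.5 and 9.0 CPM (1.93 ± 0.11, adjusted p = 2.78e-05). The study's arch genes outside the rule had 0 of 5 higher and 2 lower. The lower genes were the phosphodiesterase Pde1c (1.35, 1.07 and 1.14 against 20.8, 24.6 and 24.0 CPM, -4.36 ± 0.13) and the adhesion protein gene Flrt3 (-3.25 ± 0.27).

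The marker Rgs5, which was not used to choose the cells, had the largest increase among the genes named by fold change. Those genes had at least 50 CPM in the higher class, and less abundant genes such as Hoxb6 and Ptger3 had larger increases. It encodes a regulator of G protein signalling that shortens the response of G protein coupled receptors and is known from arterial smooth muscle and pericytes. In Hox cells Rgs5 (chromosome 1, 169655501 to 169695813) was at 953, 1028 and 392 CPM, and in Hand2 cells at 66.3, 112 and 62.6 CPM. The Hox class lay above the Hand2 class in the sums of all libraries, with APOE4 the lowest in both. The log2 fold change was 3.21 ± 0.19 (adjusted p = 3.62e-05). Thinned to 5000 UMIs, 68.0, 72.8 and 48.4% of Hox cells had an Rgs5 UMI, against 13.6, 20.4 and 12.7% of Hand2 cells. The thinned Rgs5 count per Hox cell had a median of 2, 3 and 0 UMIs and a 90th percentile of 13, 15 and 6, so the gene was uneven within the class. Across the limit of the rule, Rgs5 stood at 672 CPM in APOE2 cells with 2 Hox UMIs and 801 in those with 3, at 658 and 890.1 in APOE3, and at 299 and 337 in APOE4.

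Rgs5 was also high in other smooth muscle of the gate. In Dlx cells, which have at least 4 UMIs of the Dlx set and 0 of the Hox rule genes, it was at 869, 1036 and 903 CPM, and the difference from Hox cells did not pass the test (-0.28 ± 0.15, adjusted p = 0.229). Gate cells in none of the 3 classes held 267, 363 and 181 CPM.

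**Figure D3:**
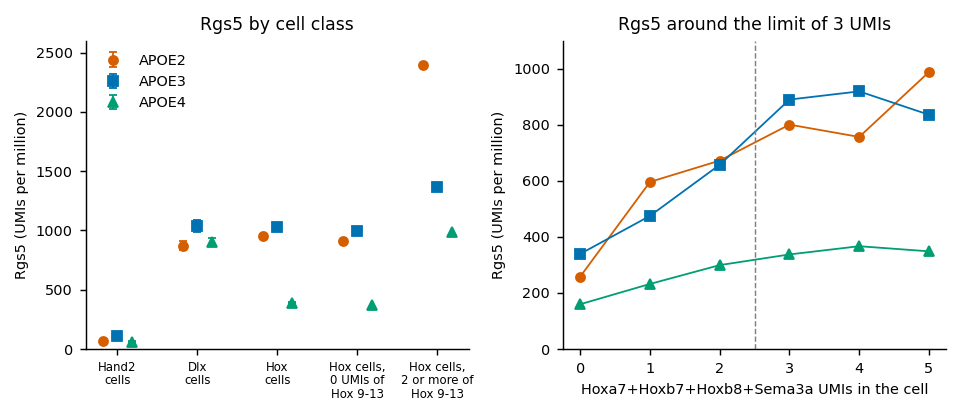
Left, Rgs5 (CPM) in Hand2, Dlx and Hox cells with 95% counting intervals, and in Hox cells with 0 or with 2 or more UMIs of Hox paralogue groups 9 to 13 (no intervals drawn), by library. Right, Rgs5 by the UMIs of the rule's genes in a cell, with the limit of the rule as a dashed line. APOE4 lies below the other libraries in the Hox cells, at 953, 1028 and 392 for APOE2, APOE3 and APOE4, while in the Dlx cells APOE2 is lowest.

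The list of regulators of G protein signalling had 6 of 13 tested genes higher and 0 lower, with a median log2 fold change of 0.65, beside 0.01 for all genes. Rgs7 was at 103, 75.5 and 77.6 against 44.3, 37.5 and 40.7 CPM (1.01 ± 0.063, adjusted p = 5.04e-05), and its membrane anchor Rgs7bp at 186, 179.7 and 149 against 109, 108 and 82.9 CPM (0.73 ± 0.047). Neither gene's classes overlapped. Rgs17 (1.13 ± 0.13), Rgs6 (1.26 ± 0.19) and Rgs3 (0.26 ± 0.060) were the other higher members besides Rgs5.

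Calcrl and Epha3 were in the 12 largest increases in Hox cells among genes with at least 50 CPM in the mean of the higher class. Calcrl, the receptor subunit for adrenomedullin and calcitonin gene-related peptide, was at 69.9, 53.2 and 44.6 against 9.20, 11.9 and 16.9 CPM (2.19 ± 0.22, adjusted p = 0.000516). Epha3, an ephrin receptor on chromosome 16 (63543534 to 63864175), was at 69.7, 58.6 and 53.7 against 12.1, 10.8 and 18.7 CPM (2.16 ± 0.16). The classes did not overlap for either receptor. Gpsm2, which orients the mitotic spindle, was at 96.9, 108 and 88.0 against 25.6, 30.7 and 30.1 CPM (1.73 ± 0.072), and the transcription factor Maf at 34.1, 49.0 and 71.0 against 14.7, 15.6 and 20.8 CPM (1.49 ± 0.10). Fibin, a secreted protein, was at 369, 335 and 291 against 123, 98.8 and 80.4 CPM (1.68 ± 0.060) and the secreted factor Ccdc3 at 369, 359 and 283 against 124, 122 and 101 CPM (1.49 ± 0.044). These did not overlap between the classes either. Art3 (1.75 ± 0.10), the matricellular gene Ccn5 (1.20 ± 0.076), Tceal6 (1.24 ± 0.076) and Rgs7 were also among the genes named as higher.

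By the same limit, the 12 largest decreases by fold included Tnnt2, Lpl and Igfbp4. Tnnt2, cardiac troponin T, was at 34.1, 22.9 and 18.1 against 441, 211 and 106 CPM (-3.21 ± 0.18, adjusted p = 2.91e-05). Lpl, lipoprotein lipase, was at 7.66, 7.94 and 5.39 against 69.4, 59.6 and 38.2 CPM (-3.01 ± 0.078), and Igfbp4, which binds insulin-like growth factors, at 14.6, 20.7 and 19.2 against 135, 178 and 117 CPM (-3.01 ± 0.11). Every library sum in the Hox class lay below every library sum in the Hand2 class for these genes. The other named decreases were Igfbp2 (-2.41 ± 0.21), the synuclein gene Sncg (-2.27 ± 0.065), the fibril-associated collagen gene Col14a1 (-2.08 ± 0.10), the potassium channel gene Kcnj15 (-2.02 ± 0.059), 2210407C18Rik (-3.22 ± 0.10) and 4 haemoglobin genes.

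The haemoglobin genes are transcripts of red blood cells. Hbb-bs was at 313, 20.8 and 37.1 against 620.0, 57.0 and 874 CPM (-2.32 ± 0.62, adjusted p = 0.0444), with Hbb-bt at -2.95 ± 0.56, Hba-a1 at -2.02 ± 0.48 and Hba-a2 at -1.99 ± 0.47. The classes overlapped across libraries, and the copies in each pair are nearly identical, so reads may be split between them uncertainly. Without cells that held 20 or more UMIs of the erythroid and macrophage lists, Hbb-bs was at 0.15, Hbb-bt at 0.08, Hba-a1 at 0.12 and Hba-a2 at -0.12, and none passed the test. The erythroid list holds these same genes, so this follows in part from the filter.

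**Figure D4:**
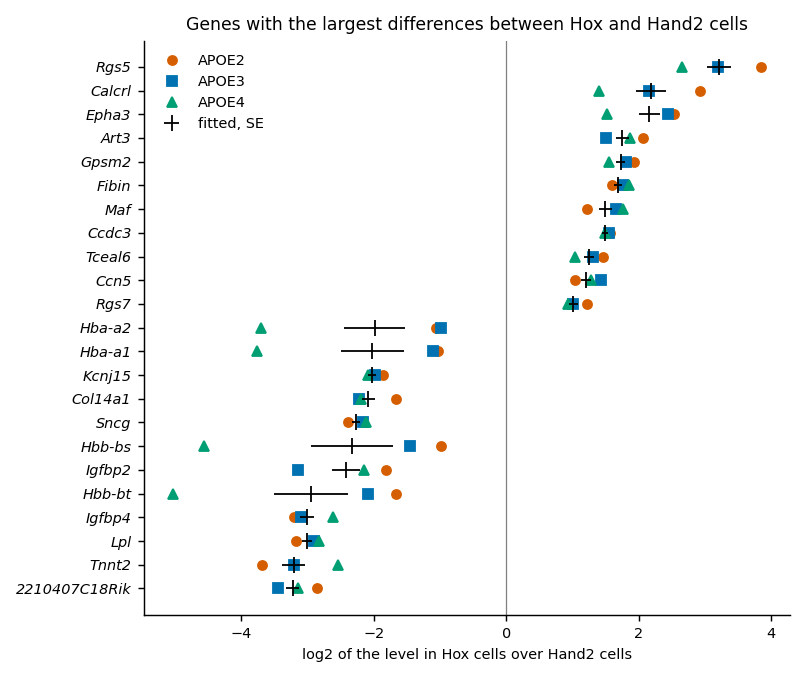
Log2 ratio of the level in Hox cells over Hand2 cells in each library for genes with the largest changes by the naming rule, with the fitted log2 fold change and its SE in black. Rgs5 is highest at 3.21, and the globin genes Hbb-bs, Hbb-bt, Hba-a1 and Hba-a2 have the largest SEs.

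Transcription factors of the outflow tract and of the trunk were split between the classes. The list of outflow and neural crest factors had 3 of 18 tested genes higher and 10 lower, with a median log2 fold change of -0.62. Tbx20, a cardiac T-box factor, was at 3.22, 2.95 and 5.00 against 23.7, 25.3 and 30.1 CPM (-2.88 ± 0.11, adjusted p = 5.29e-06). Gata4 (-4.75 ± 0.48), Isl1 (-4.06 ± 0.63), Tfap2a (-4.98 ± 0.48) and Tbx3 (-3.59 ± 0.57), known from heart, second heart field, neural crest and the cardiac conduction system, were lower, and Hand1 had 0 UMIs in Hox cells and 23 in Hand2 cells, at least 8.96-fold lower. Mef2c (0.19 ± 0.042), Foxc1 (0.22 ± 0.055) and Prrx1 (0.47 ± 0.051) were higher.

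The trunk mesoderm factors had 4 of 10 tested genes higher and 3 lower, with a median log2 fold change of 0.10. Pax1, a sclerotome factor, was at 2.19, 1.92 and 2.88 against 0.0945, 0.150 and 0 CPM (4.40 ± 0.45, adjusted p = 0.000563). Its paralogue Pax9 was at 2.57, 2.30 and 1.70 against 0.409, 0.300 and 0.300 CPM (2.65 ± 0.28), and Tbx18, a T-box factor of mesoderm, at 45.8, 55.8 and 51.9 against 25.1, 32.0 and 25.9 CPM (0.83 ± 0.058). All library sums in the Hox class lay above those in the Hand2 class for the 3 genes. Nr2f2 was higher (0.29 ± 0.048), and Tcf21 (-4.54 ± 0.41), Osr2 (-4.24 ± 0.43) and Tbx15 (-1.04 ± 0.18) were lower.

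The contractile list had 4 of 25 tested genes higher and 2 lower, with a median log2 fold change of 0.03. Myh11 (0.14 ± 0.038, adjusted p = 0.0444), caldesmon (Cald1, 0.36 ± 0.047), the integrin gene Itga8 (0.25 ± 0.050) and Synpo2 (0.24 ± 0.042) were higher. Mylk, the myosin light chain kinase, was at 942, 942 and 951 against 1027, 1033 and 1055 CPM (-0.18 ± 0.038). Phospholamban, Pln, which restrains the calcium pump of the sarcoplasmic reticulum, was at 3.15, 3.03 and 5.10 against 22.5, 25.7 and 15.5 CPM (-2.52 ± 0.25, adjusted p = 0.000447). Both genes were lower in Hox cells in every library.

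Ion channel and calcium genes had 10 of 21 tested genes higher and 2 lower, with a median log2 fold change of 0.20. The pore of the L-type calcium channel, Cacna1c, was at 148, 117 and 123 against 92.2, 78.7 and 98.5 CPM (0.48 ± 0.068), and the ATP-sensitive potassium channel subunit Abcc9 at 177, 148 and 144 against 97.8, 91.2 and 98.6 CPM (0.66 ± 0.061). Both were higher in Hox cells, as were the channel subunit Cacnb2 (0.47 ± 0.068) and the large-conductance potassium channel Kcnma1 (0.43 ± 0.059). Cacnb3 (-0.55 ± 0.078) and Cacna1d (-0.42 ± 0.090) were lower.

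Receptors for vasoactive agents had 6 of 22 tested genes higher and 5 lower, with a median log2 fold change of 0.11. Ptger3, a prostaglandin E2 receptor that couples to Gi, was at 18.2, 16.5 and 8.79 against 1.01, 1.00 and 0.400 CPM (4.09 ± 0.14, adjusted p = 2.43e-06). The ATP-gated channel P2rx1 was at 26.4, 24.1 and 20.3 against 7.24, 8.65 and 4.20 CPM (1.75 ± 0.13), and the angiotensin receptor Agtr1b at 3.73, 2.49 and 2.65 against 0.724, 0.200 and 0.300 CPM (2.75 ± 0.30). The classes did not overlap for any of the 3 receptors. Lower in Hox cells were the beta-1 adrenergic receptor Adrb1 (-1.91 ± 0.21), the endothelin receptor Ednra (-0.95 ± 0.18), the prostaglandin receptor Ptger4 (-1.0 ± 0.26), the alpha-1B adrenergic receptor Adra1b (-0.82 ± 0.15) and the guanylate cyclase subunit Gucy1a1 (-0.33 ± 0.050).

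Axon guidance genes, the family of the rule gene Sema3a, had 11 of 28 tested genes higher and 6 lower, with a median log2 fold change of 0.05. Besides Epha3, the semaphorin Sema3e was higher (5.41, 12.7 and 12.7 against 2.20, 4.40 and 5.30 CPM, 1.32 ± 0.12), as was the netrin gene Ntn4 (28.4, 29.5 and 23.8 against 12.4, 15.3 and 11.5 CPM, 1.02 ± 0.070). The semaphorin co-receptor Nrp2 (1.67, 1.53 and 2.26 against 4.72, 7.25 and 8.10 CPM, -1.93 ± 0.17), the slit receptor Robo1 (-2.45 ± 0.26) and Ephb2 (-2.24 ± 0.28) were lower.

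The elastic fibre and collagen list had 4 of 30 tested genes higher and 13 lower, with a median log2 fold change of -0.15. The proteoglycan versican, Vcan, was higher (197, 216 and 134 against 74.9, 123 and 74.0 CPM, 0.98 ± 0.10), while Fbln2 (-1.42 ± 0.16), Col8a1 (-1.32 ± 0.13), Fbln1 (-1.24 ± 0.31) and Ltbp2 (-0.84 ± 0.10) were lower. Genes of modulated and osteochondrogenic smooth muscle had 4 of 20 tested genes higher and 8 lower, with a median log2 fold change of -0.43. Fibronectin, Fn1, was at 451, 721 and 537 against 233, 375 and 269.7 CPM (0.91 ± 0.042, adjusted p = 1.01e-05) and the adhesion molecule Vcam1 at 63.2, 44.4 and 28.5 against 140.0, 73.5 and 54.4 CPM (-0.99 ± 0.080). Within each library Fn1 was higher and Vcam1 lower in Hox cells. Alkaline phosphatase, Alpl (1.17 ± 0.16), and bone sialoprotein, Ibsp (1.91 ± 0.19), were higher and Cytl1 was lower (-2.65 ± 0.28).

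The TGF-beta, BMP and Wnt list had 4 of 25 tested genes higher and 9 lower, with a median log2 fold change of -0.15. The Wnt inhibitors Wif1 (71.7, 71.7 and 61.1 against 105, 155 and 150.3 CPM, -1.04 ± 0.12), Sfrp1 (-1.12 ± 0.14) and Sfrp2 (-0.91 ± 0.15) and the ligand Bmp4 (-1.04 ± 0.13) were lower, and the ligand Bmp6 was higher (2.38, 2.15 and 1.99 against 0.724, 0.50 and 0.600 CPM, 1.79 ± 0.25). Notch and PDGF genes had 1 of 13 higher and 3 lower, with the receptor Notch2 higher (0.40 ± 0.055) and the Notch targets Hes1 (-0.72 ± 0.10) and Heyl (-0.40 ± 0.050) and the PDGF receptor Pdgfra (-0.64 ± 0.16) lower. Sterol and lipid genes had 3 of 26 tested genes higher and 4 lower, with a median log2 fold change of -0.10. The cholesterol exporter Abcg1 (-1.63 ± 0.26) and Lpl were the lowest, and the fatty acid desaturase gene Scd2 (0.40 ± 0.054) was among the higher genes. The nuclear genes of the respiratory chain had 2 of 75 tested genes higher and 0 lower, with a median log2 fold change of 0.05, the higher ones being Ndufa4 (0.21 ± 0.043) and Cox8a (0.17 ± 0.043). Over all genes tested 5.56% were higher and 7.52% lower, and the respiratory chain lay below both shares.

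Immediate early and heat shock genes were lower in Hox cells throughout the list. It had 0 of 24 tested genes higher and 24 lower, with a median log2 fold change of -0.67, beside 7.52% lower among all genes. The co-chaperone Dnajb1 was at 170.1, 367 and 494 against 665, 985 and 1111 CPM (-1.56 ± 0.13, adjusted p = 0.000199), the transcription factor Junb at 272, 417 and 1298 against 782, 989 and 1891 CPM (-1.15 ± 0.16) and the stress factor Atf3 at 541, 933 and 1732 against 1246, 1671 and 2469 CPM (-0.90 ± 0.11). Within every library the Hox cell value was the lower, while both classes were highest in APOE4. The mRNA decay factor Zfp36 had the same pattern, at 64.6, 102 and 234 against 144, 202 and 428 CPM (-1.05 ± 0.061), and the cytokine signalling inhibitor Socs3 (-1.31 ± 0.15) and Fosl1 (-1.23 ± 0.17) were among the largest decreases. Without the library block none of the 24 genes passed, while all 24 fold changes were below 0. In the other alternatives that were run 23 or 24 of the 24 were lower. Enzymatic dissociation is known to induce these genes, and its part in the difference was not tested.

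Inflammation genes had 0 of 21 tested genes higher and 12 lower, with a median log2 fold change of -0.65. The transcription factor Irf1 was at 34.6, 47.0 and 159.8 against 103, 108 and 269 CPM (-1.20 ± 0.13), the NF-kappaB inhibitor Nfkbia at 174, 194 and 550.3 against 328, 337 and 821 CPM (-0.81 ± 0.066) and the adhesion molecule Icam1 at 3.09, 1.57 and 4.84 against 11.2, 6.2 and 13.4 CPM (-1.78 ± 0.14). The siderophore binder Lcn2 (-3.0 ± 0.18) and the interferon-induced genes Ifit1 (-1.68 ± 0.27) and Ifit3 (-1.40 ± 0.27) were lower too. As for the immediate early genes, the difference lay within libraries, and none of 20 passed without the library block. With cells of 10000 to 25000 UMIs 7 of 21 were lower. Oxidant and stress genes had 1 of 19 tested genes higher and 7 lower, with a median log2 fold change of -0.13. The oxidase Nox4 was higher (0.26 ± 0.043), and the haem oxygenase Hmox1 (-1.29 ± 0.12) and the metallothioneins Mt1 (851, 338 and 620.2 against 2026, 479 and 1019 CPM, -0.87 ± 0.12) and Mt2 (-0.90 ± 0.14) were lower.

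Markers of other cells moved with the comparison. The erythroid list summed to 522, 47.3 and 77.3 CPM in Hox cells and 1105, 118 and 1499 CPM in Hand2 cells, with Hbb-bs its most abundant gene, no gene at 0 and all 5 genes lower. The macrophage list summed to 101, 58.6 and 22 CPM against 41.3, 7.30 and 16.0 CPM, with Lyz2 its most abundant gene in Hox cells, and had 5 of 10 tested genes higher and 0 lower, with a median log2 fold change of 1.49. Lyz2 UMIs sat in few cells, since the 5 Hox cells with the most held 88.8, 93.8 and 90.4% of them. Without the cells of 20 or more erythroid and macrophage UMIs, none of 4 erythroid and none of 8 macrophage genes passed, and 850 genes were higher and 1170 lower in all. The cells were left out by the UMIs of these same lists, so the loss of their calls follows in part from the filter.

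The fibroblast list summed to 587, 803 and 543 CPM against 769, 948 and 747 CPM, mostly gelsolin (Gsn), which smooth muscle also expresses, and had 0 of 9 higher and 4 lower. The endothelial list summed to 72.3, 62.6 and 66.5 CPM against 38.0, 29.7 and 49.0 CPM and had 2 of 5 higher and 0 lower, namely Pecam1 (45.2, 31.6 and 40.7 against 19.9, 14.8 and 29.3 CPM) and Esam, while the defining gene Cdh5 had 1 UMI in Hox cells and 12 in Hand2 cells. The pericyte list had 2 of 7 higher and 1 lower, with the channel genes Abcc9 and Kcnj8 higher and Cox4i2 lower. The striated muscle list had 1 of 6 higher and 1 lower, namely Tnni3 and Tnnt2, the lymphocyte list 0 of 6 higher and 3 lower and the Schwann cell list 0 of 2 higher and 0 lower, and no adipocyte gene was tested. The part of RNA from these cells in the other results was not tested beyond the count without the erythroid and macrophage UMIs.

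Compared with Dlx cells, Hox cells had higher levels of the transcription factor Maf, of the secreted factor Ccdc3 and of smooth muscle myosin, Myh11, and lower levels of the adhesion gene Mdga2, the matrix genes Adamtsl1 and Fbln1 and the homeobox gene Prrx2. The Dlx cells numbered 91 in APOE2, 61 in APOE3 and 104 in APOE4. Dlx genes are homeobox genes best known from the pharyngeal arches. Of 13113 genes, 1031 were higher in Hox cells (7.86%) and 1237 lower (9.43%), with a median log2 fold change of 0.01. These shares are the background for every list count against Dlx cells below. Without the library block the counts were 397 and 679, and with DESeq2 548 and 848. Dlx cells were deeper, with medians of 21811, 22642 and 23850.5 UMIs. This comparison and the first use the same Hox cells.

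Maf was at 34.1, 49.0 and 71.0 against 7.02, 10.3 and 5.31 CPM in Hox and Dlx cells (2.92 ± 0.20, adjusted p = 1.22e-10), and Ccdc3 at 369, 359 and 283 against 75.5, 85.1 and 56.8 CPM (2.31 ± 0.091). The diacylglycerol kinase Dgkb was at 126, 113 and 108 against 25.5, 30.4 and 17.4 CPM (2.36 ± 0.12). The 3 genes did not overlap between the classes. Tafa1, a secreted neuropeptide-like protein (2.13 ± 0.11), Art3 (1.94 ± 0.11) and the proprotein convertase Pcsk5 (1.89 ± 0.11) were the other named increases. The neural adhesion gene Mdga2 was at 0.901, 0.537 and 0.163 against 176, 166 and 159 CPM (-8.37 ± 0.18), the matrix gene Adamtsl1 at 2.57, 1.57 and 1.21 against 441, 648 and 490.3 CPM (-8.22 ± 0.15) and the homeobox gene Prrx2 at 3.03, 2.42 and 2.65 against 177, 189 and 152 CPM (-5.92 ± 0.12). These were low in Hox cells of every library. The adhesion gene Negr1 (-8.20 ± 0.18) and the growth factor homologue Fgf12 (-7.74 ± 0.26) were also named as lower.

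Hox genes outside the rule had 9 of 16 tested genes higher and 2 lower, with a median log2 fold change of 0.89 against Dlx cells. Both of these classes were chosen on Hoxa7, Hoxb7 and Hoxb8 as well, so the directions are not independent of the choice. Hoxb6 was at 25.3, 28.9 and 24.4 against 3.95, 3.04 and 1.52 CPM (3.31 ± 0.24) and Hoxb5 at 20.1, 18 and 17.4 against 4.83, 4.86 and 1.52 CPM (2.47 ± 0.26). Both were present in Dlx cells, at lower levels than in Hox cells. Hoxc6 had 405 UMIs in Hox cells and 1 in Dlx cells, a ratio of 36.8 (6.57 to 1458), and Hoxd4 had 0 UMIs in Hox cells and 33 in Dlx cells, at least 121-fold lower. Hoxa3 did not pass (-0.03 ± 0.12, adjusted p = 0.907), and Hoxa4 was lower (-0.68 ± 0.19).

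Contractile genes had 14 of 26 tested genes higher and 2 lower, with a median log2 fold change of 0.25. Myh11 was at 2951, 2792 and 2906 against 1984, 2126 and 2054 CPM (0.57 ± 0.075), and desmin, Des, at 72, 117 and 109.9 against 42.6, 28.0 and 33.7 CPM (1.55 ± 0.16). Both were higher in Hox cells in every library, as was tropomyosin Tpm2 by its test (0.61 ± 0.076). Elastic fibre and collagen genes had 5 of 30 tested genes higher and 20 lower, with a median log2 fold change of -0.43, with the fibulin Fbln1 at 3.03, 3.26 and 3.40 against 133, 122 and 115 CPM (-5.15 ± 0.12) and the microfibril gene Mfap5 lower as well (-1.87 ± 0.078). The fibroblast markers had 0 of 9 higher and 8 lower. Immediate early and heat shock genes had 2 of 24 tested genes higher and 3 lower, with a median log2 fold change of -0.01. Among the vasoactive receptors, with 9 of 21 higher and 3 lower, Ptger3 had 980 UMIs in Hox cells and 3 in Dlx cells, a ratio of 29.7 (10.1 to 144), P2rx1 was higher (2.74 ± 0.22), and Ednra was lower (2.32, 1.50 and 1.54 against 19.3, 26.1 and 17.1 CPM, -3.47 ± 0.26).

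Among the remaining lists against Dlx cells, outflow and neural crest factors had 2 of 18 higher and 10 lower, trunk mesoderm factors 3 of 8 higher and 4 lower, cofactors 0 of 9 higher and 2 lower and inflammation genes 1 of 21 higher and 13 lower. Modulated genes had 3 of 20 higher and 8 lower, and of the higher ones Spp1 had 5027 of its 5106 UMIs in APOE2 Hox cells in 1 cell. Guidance genes had 6 of 28 higher and 8 lower, RGS genes 4 of 13 higher and 3 lower, ion channels 10 of 21 higher and 5 lower and TGF-beta, BMP and Wnt genes 3 of 26 higher and 10 lower. Notch and PDGF genes had 6 of 13 higher and 2 lower, oxidant genes 3 of 19 higher and 7 lower, sterol and lipid genes 2 of 26 higher and 8 lower and respiratory chain genes 9 of 75 higher and 0 lower. Over all genes tested against Dlx cells 7.86% were higher and 9.43% lower.

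Markers of other cells also moved between Hox and Dlx cells. The erythroid list summed to 522, 47.3 and 77.3 CPM in Hox cells and 2865, 12.8 and 105 CPM in Dlx cells, with Hbb-bs its most abundant gene, and had 0 of 5 higher and 4 lower, while without the APOE2 library 0 of 5 were lower. Dlx cells were thus above Hox cells in APOE2 and APOE4 and below them in APOE3. The macrophage list summed to 101, 58.6 and 22 against 100.1, 2.43 and 4.55 CPM, with 8 of its 10 genes at 0 in the APOE3 Dlx cells, and had 1 of 9 higher and 0 lower, namely Lyz2. The pericyte list summed to 477, 483 and 449 against 511, 542 and 478 CPM and had 2 of 7 higher and 4 lower, with Abcc9 (0.45 ± 0.085) and Notch3 (0.94 ± 0.20) higher and Kcnj8 (-0.95 ± 0.093), Cox4i2 (-1.44 ± 0.13), Ndufa4l2 (-3.35 ± 0.68) and Pdgfrb (-0.27 ± 0.091) lower. The endothelial list had 1 of 2 higher and 0 lower, the striated muscle list 1 of 4 higher and 1 lower, the lymphocyte list 0 of 2 higher and 1 lower and the Schwann cell list 0 of 2 higher and 1 lower. Without cells of 20 or more erythroid and macrophage UMIs, 2224 genes were called in place of 2268, and the part of RNA from other cells was not tested further.

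Rgs5 was higher in the Hox cells with the most posterior Hox transcripts. Within the class, the cells furthest along the Hox code were compared with the rest. Cells with at least 2 UMIs of the 16 Hox genes of paralogue groups 9 to 13, called posterior here, numbered 6 in APOE2, 16 in APOE3 and 24 in APOE4, against 862, 1081 and 1410 cells with 0. Of 12338 genes tested, 8 were higher (0.0648%) and 22 lower (0.178%) in posterior cells. Rgs5 was at 2395, 1369 and 989 CPM in posterior cells and 912, 992 and 369 CPM in the others. It was higher in each library, with a log2 fold change of 1.03 ± 0.11 (adjusted p = 2.44e-17). The CPM ratio was smaller in APOE3 than in APOE2 and APOE4, and the APOE2 value rests on 6 cells. The SE and p-value rest on sums over few cells and do not cover this spread between libraries. With at least 1 UMI as the limit, chosen after the first result was seen, the change in Rgs5 was 0.66 and passed the test. Without the library block Rgs5 was at 0.98 and none of 11857 genes passed, with 501 at an unadjusted p under 0.05, and DESeq2 called 1 higher and 1 lower gene, with 145 at an unadjusted p under 0.05.

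The other named genes were lower in posterior cells. The Wnt inhibitor Wif1 was at 30.2, 23.9 and 31.6 CPM against 72.1, 73.2 and 61.0 CPM (-1.26 ± 0.26), from 4, 8 and 18 UMIs in posterior cells. Emb, an adhesion glycoprotein gene (-0.78 ± 0.17), the activin subunit gene Inhba (-0.76 ± 0.18), the heat shock gene Hspa1a (-0.71 ± 0.11) and AY036118 (-0.89 ± 0.16) had smaller changes. With at least 1 UMI as the limit Wif1 was at -0.18, AY036118 at -0.17, Emb at -0.32 and Inhba at -0.047, none passing the test, while Hspa1a at -0.43 and Hbb-bs at -2.55 passed. Without the APOE3 library Wif1, Emb, Inhba and Hspa1a did not pass, at -1.07, -0.91, -0.78 and -0.53, without APOE4 Wif1, Emb and Inhba did not, at -1.57, -0.75 and -0.74, and without APOE2 AY036118 did not, at -0.58. Hbb-bs (-3.46 ± 0.37) had 1, 1 and 5 UMIs in posterior cells. Named after their values were seen, the higher genes Pln (2.34) and Ereg (2.21), a growth factor, rested on 0, 0 and 23 and on 1, 2 and 43 UMIs, nearly all from APOE4. Posterior cells had median depths of 21210, 18788.5 and 20698 UMIs against 14939, 20031 and 17275 in the others. The erythroid list summed to 22.7, 8.97 and 15.8 CPM against 556, 50.6 and 83.4 CPM and had 0 of 4 higher and 3 lower, and the macrophage list to 0, 5.98 and 8.78 CPM against 108, 62.9 and 23.7 CPM with 0 of 8 higher and 1 lower, namely Lyz2. In posterior cells these sums rest on 3, 3 and 9 and on 0, 2 and 5 UMIs. Without cells of 20 or more such UMIs, 24 genes were called in place of 30, Rgs5 was at 1.02, Wif1 at -1.26 and Hbb-bs at -0.87. Hbb-bs, one of the genes that the filter counted, no longer passed the test. The 16 Hox genes that chose the posterior cells were left out of this fit, and the other Hox genes outside the rule had 0 of 15 higher and 0 lower, contractile genes 1 of 25 higher and 0 lower and immediate early genes 0 of 24 higher and 4 lower.

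In Hox cells 22 of 23 immediate early and heat shock genes were above their APOE3 level in APOE4, 9 of them at least 2-fold. Over all genes compared, 1780 of 5913 were above their APOE3 level in APOE4. Rgs5, Carmn and Mgp were lower in APOE4 than in APOE3. In APOE2, Mt1 was higher and Sparcl1 lower than in APOE3. Genotype ratios describe these 3 libraries only and carry no test. A ratio is the log2 of 1 library's CPM over another's, with an exact conditional binomial 95% interval for counting error. Genes were compared with at least 20 CPM in 1 of the 2 libraries and at least 50 UMIs in the 2 together, and the rule's genes were left out. For APOE4 over APOE3, 94 of 5913 genes were at least 2-fold higher (1.59%) and 10 lower (0.169%), with a median ratio of -0.10. For APOE2 over APOE3, 28 of 6029 were higher (0.464%) and 19 lower (0.315%), with a median of 0.01. For APOE4 over APOE2, 114 of 5998 were higher (1.9%) and 35 lower (0.584%), with a median of -0.11, and 147 and 32 after centring on the median gene.

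Of the 8 genes named as higher in APOE4, Klf4, Ier3 and Junb are in the immediate early list and Irf1 and Nfkbia in the inflammation list. Gadd45b, a stress-induced growth arrest gene, was at 173, 246 and 959 CPM, a ratio over APOE3 of 1.97 (1.93 to 2.00). Klf4, a transcription factor linked to loss of the contractile state, was at 85.1, 127 and 438 CPM (1.78, 1.73 to 1.84), and Junb at 272, 417 and 1298 CPM (1.64, 1.61 to 1.67). APOE4 was the highest library for each, and APOE2 the lowest. The other named genes were Irf1 (1.77), the early response gene Ier3 (1.75), Ints6 (1.66), the nuclear receptor Nr4a2 (1.52) and Nfkbia (1.50). The immediate early list had 9 of 23 at least 2-fold higher and 0 lower. Of its genes 22 of 23 were above 0, beside 1780 of 5913 over all genes compared, and its median was 0.74. In Hand2 cells the median of the list was 0.52 and in Dlx cells 0.91, and whether the classes differ was not tested. For APOE2 over APOE3 the median of the list was -0.49, with 3 of 23 above 0, beside 3160 of 6029 over all genes compared. Median mitochondrial UMIs in Hox cells were 3.12% in APOE4, 2.77% in APOE2 and 1.75% in APOE3, and their part was not tested.

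Rgs5 had the lowest ratio of APOE4 over APOE3 among the named genes. It stood at -1.39 (-1.42 to -1.36) in Hox cells, -0.84 (-0.97 to -0.71) in Hand2 cells and -0.20 (-0.29 to -0.11) in Dlx cells, and the difference between the classes was not tested. Carmn, a long noncoding RNA of smooth muscle that acts with myocardin, was at 242, 159 and 64.0 CPM (-1.31, -1.39 to -1.24) and had a UMI in 84.6, 78.5 and 51.8% of the cells. Matrix Gla protein, Mgp, an inhibitor of calcification, was at 9208, 10657 and 5684 CPM (-0.91, -0.92 to -0.90). APOE4 was the lowest library for all 3 genes. The matricellular gene Ccn2 (-0.87), Vcan (-0.69), the elastic fibre gene Fbln5 (-0.68), B3galt1 (-0.80) and Wtip (-0.67) were the remaining named genes. Contractile genes had 0 of 23 at least 2-fold higher and 0 lower and a median of -0.08 beside -0.10 for all genes, and respiratory chain genes had 0 of 75 at least 2-fold higher and 0 lower.

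**Figure D5:**
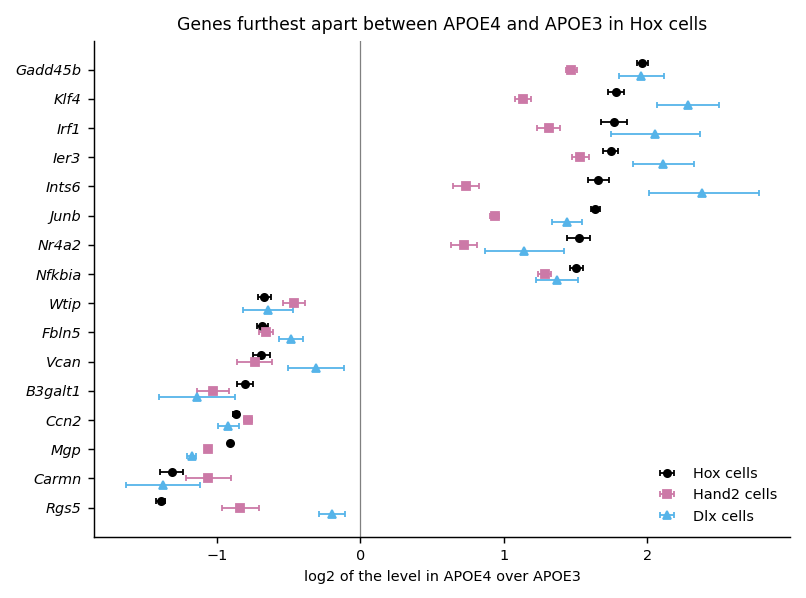
Log2 ratio of APOE4 over APOE3 with exact 95% counting intervals in Hox, Hand2 and Dlx cells, for the 16 genes named in Hox cells. The 8 genes higher in APOE4 lie above 0 in all 3 classes, and Rgs5 ranges from -1.39 in Hox cells to -0.20 in Dlx cells.

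For 3 of the genes with the highest ratios of APOE2 over APOE3, 1 cell held most UMIs. Spp1, which encodes osteopontin, was at 329, 0.384 and 0.131 CPM, a ratio of 9.74, with 5027 of 5106 UMIs in 1 cell of APOE2, and a UMI in 5.63% of the APOE2 cells against 0.429% in APOE3. Timp1, a protease inhibitor, was at 102, 14.8 and 11.0 CPM (2.79), had 1216 of 1592 UMIs in 1 cell, and stood at -0.03 without the 5 cells with the most UMIs in each library. Hbb-bs (3.91) had 3329 of 4863 UMIs in 1 cell, a UMI in 22.6% of the cells against 7.72% in APOE3, and stood at 1.84 without the 5 top cells. Other genes were spread over more cells. The metallothionein Mt1, which binds zinc and copper, was at 851, 338 and 620.2 CPM (1.33, 1.29 to 1.37) and at 1.22 without the 5 top cells, and Mt2 was at 1.34. The fatty acid carrier Fabp4 was at 377, 176 and 127 CPM (1.10) and the focal adhesion gene Tes at 258, 121 and 194 CPM (1.09). AY036118 was at 1.38. APOE2 was the highest library for Mt1, Fabp4 and Tes.

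Among the genes lower in APOE2, the matricellular gene Sparcl1 was at 103, 313 and 278 CPM (-1.60, -1.68 to -1.52) and the filamin-binding gene Fblim1 at 428, 1038 and 866 CPM (-1.28, -1.32 to -1.24). Both were lowest in APOE2, and Fblim1 was at -1.31 in Hand2 cells and -1.37 in Dlx cells. Dnajb1 (-1.11), S100a4 (-0.98), Tcea3 (-0.93), Klf2 (-0.90) and Ccn3 (-0.88) were also named. Eif3j1 was at 35.3, 105 and 117 CPM (-1.58), but its near-identical copy Eif3j2, looked up after its value was seen, was at 4.49, so both are uncertain. Inflammation genes had 1 of 7 at least 2-fold higher and 0 lower for APOE2 over APOE3, namely the chemokine gene Cxcl2, and 4 of 8 at least 2-fold higher and 0 lower for APOE4 over APOE3, namely Irf1, Nfkbia, Cxcl1 and Cxcl2. In both APOE2 and APOE4, 1 cell held most Cxcl2 UMIs, 491 of 791 and 703 of 781. Modulated genes had 2 of 11 at least 2-fold higher and 2 lower for APOE2 over APOE3, the higher ones being Spp1 and Timp1, sterol and lipid genes 1 of 11 at least 2-fold higher and 0 lower, elastic fibre and collagen genes 0 of 24 at least 2-fold higher and 0 lower, and Hox genes outside the rule 0 of 6 at least 2-fold higher and 0 lower. Markers of other cells moved with the genotype ratios. The erythroid list had 4 of 4 at least 2-fold higher and 0 lower for APOE2 over APOE3, with a median of 3.35, and the macrophage list 2 of 3 at least 2-fold higher and 0 lower, with a median of 1.12, while for APOE4 over APOE2 all 4 erythroid and all 3 macrophage genes compared were at least 2-fold lower. Without cells of 20 or more erythroid and macrophage UMIs, 36 genes in place of 47 were past 2-fold for APOE2 over APOE3, 103 in place of 104 for APOE4 over APOE3 and 137 in place of 149 for APOE4 over APOE2, and the part of RNA from other cells was not tested further.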

How the data were processed

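Droplet (10x) libraries, 1 for each APOE genotype and 3 in all, were used. The authors deposited filtered UMI counts per gene and cell barcode, which the matrix headers credit to Cell Ranger 7.0.1 with build mm10, and all values are whole numbers. The files held 12288, 7247 and 8971 barcodes for APOE2, APOE3 and APOE4 and 32285 genes, of which 32235 matched GENCODE vM21. Doublets were not removed in the main results. Scrublet in scanpy 1.11.5 scored each library, and an alternative left out the highest 6% of scores.

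Summed counts of 2 classes of cells were compared with edgeR 4.0.16 in R 4.3.3 (quasi-likelihood test, TMM, filterByExpr, Benjamini-Hochberg adjustment over all genes), without the 14 genes of the rule. The library was a block because both classes come from the same pool of mice. The fit was run on simulated counts in which 100 genes changed 2-fold. It recovered 94% of them against Hand2 cells and 78% against Dlx cells, with 9 and 6 false calls. The simulation gave all genes 1 fixed dispersion and all libraries the same gene means, so it does not cover differences between libraries. These p-values use a variance that edgeR estimates for each gene with information shared across genes, over 3 libraries that differ in genotype. For a single gene the spread between libraries can be larger than its SE, as for Rgs5 in posterior cells. Genotypes have 1 library each, so ratios with exact counting intervals were given without a test, on counts that kept mitochondrial genes. Reads of near-identical copies may be split uncertainly. DESeq2 1.42.0 was an alternative.

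Genes were named by a rule: the 12 largest changes in each direction against Hand2 cells and the 6 largest against Dlx cells and in posterior cells, with an adjusted p under 0.05, 1 direction in all 3 libraries and at least 50 CPM in the higher class, the 8 largest genotype ratios with at least 100 CPM in 1 library, and up to 4 called members of each list. A few genes that the rule names are not reported here. Further list members were named after their values were seen. The members of the class and the gene lists were chosen with earlier results of these data known. The fit against Dlx cells without the block, the limit of 1 posterior UMI, the count of 1 thinned Hox UMI, and the fits without cells of 20 or more erythroid and macrophage UMIs or without the 5 top cells of a gene were chosen after seeing the data.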

Additional observations from a re-analysis of the deposited data

Results flagged for a closer look

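S100a8 and S100a9, calcium-binding proteins of neutrophils, had opposite ratios of APOE2 over APOE3 in the 2 main classes of cells, and the difference was not tested. S100a8 stood at a log2 ratio of 6.23 in Hox cells and -2.84 in Hand2 cells, with 437 of its 448 UMIs in APOE2 Hox cells in 1 cell. S100a9 stood at 6.57 in Hox cells and -2.75 in Hand2 cells, with 543 of 568 UMIs in 1 cell.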

How the results depend on the processing

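APOE2 had the lowest Hox share under each of the alternatives that were run, and the size of the shares changed with the depth and the limit. APOE2, APOE3 and APOE4 stood at 3.33, 4.35 and 4.52% after thinning to 5000 UMIs with at least 3 Hox UMIs, at 17.8, 25.4 and 32.8% with at least 1, at 6.48, 13.3 and 12.2% with at least 5 UMIs in unthinned cells and at 10.2, 17.8 and 18.8% without Sema3a, and cells with at least 10000 UMIs gave 14.5% in APOE2 and 28.7% in APOE4. Against Hand2 cells DESeq2 called 402 genes higher and 699 lower, 1101 in all, and the fit with no replicate block 262, while leaving out 1 library each gave 1412 to 1724. Against Dlx cells DESeq2 called 548 higher and 848 lower, 1396 in all, the fit with no replicate block 1076, and leaving out 1 library 1611 to 1681. Posterior cells gave 2 calls by DESeq2, 0 with no replicate block, 12 among cells of 10000 to 25000 UMIs and 13 to 26 with 1 library left out, the lowest without APOE3 and 19 without APOE4. Genes past 2-fold with limits of 5 CPM and 20 UMIs numbered 126 for APOE2 over APOE3, 210 for APOE4 over APOE3 and 325 for APOE4 over APOE2. In the comparison with Hand2 cells Hbb-bt was at 0.079, Hbb-bs at 0.15 and Hba-a1 at 0.12 without cells of 20 or more erythroid and macrophage UMIs, and for APOE2 over APOE3 Timp1 was at -0.027 without the 5 cells with the most of its UMIs. Of the values of named genes under an alternative, 655 kept their direction and their side of the threshold or moved little, 61 genotype ratios moved, and 43 were no longer called, 28 of them in posterior cells and 15 against Hand2 cells. Another 4 reversed direction, 3 of them against Hand2 cells and 1 a genotype ratio. Except where a value above shows it, the cause was not tested. The block here is the library that both classes share. With 1 library a genotype, 3 in all, the smallest classes held 6 posterior cells in APOE2 and 61 Dlx cells in APOE3.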
